A study of Drosophila melanogaster with 8 samples.

Results

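The genes described here encode the nuclear part of the oxidative phosphorylation machinery of Drosophila melanogaster. They were chosen by name: every nuclear protein-coding gene of the release 6 annotation whose symbol begins with ND-, COX, UQCR-, Sdh or ATPsyn, which gave 88 of 13945 protein-coding genes. Of these, 64 are called broadly used genes below, by their names alone and not by measured expression, and include the assembly factor Sdhaf3. The other 24 are paralogues whose symbol adds an L, or an L and a digit, to the name of another subunit, and they are called L paralogues below. ND-MNLL carries its subunit's own name and was counted among the broadly used genes.

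Accessible chromatin was profiled by ATAC-seq, in which a transposase cuts open DNA, in primordial germ cells (PGCs) and in somatic cells of late embryos laid overnight at 25 °C. All flies carried Vas::EGFP, a GFP fusion of the germline helicase Vasa, and the sort took GFP-positive cells as PGCs and GFP-negative cells, a mixture of embryonic cell types, as somatic cells. Each cell type had 2 samples, and the authors called peaks on the average of both. The data are therefore 1 peak list for PGCs and 1 for somatic cells, so that replicate spread is unknown and the cell types could not be tested against each other. The study gives an approximate sequencing yield per sample, but the lists hold no read counts from which the depth behind a peak could be taken.

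The PGC list holds 19504 peaks on the main chromosomes, with a median height of 62.1 RPKM (a read density at the summit, scaled to the length of DNA and the number of mapped reads). The somatic list holds 17411, with a median of 56.9 RPKM. The lowest listed height is 50 RPKM in both lists, and the median width is 150 bp in both. A gene without a peak may still have signal under that cutoff, and the lists need not share a scale. A lower peak from fewer open cells cannot be told apart from a lower peak in the same number of cells. Of 10 germline markers, all 10 had a peak near a start site in the PGC list, at 52.2 to 157.6 RPKM, and 3 in the somatic list, at 52.4 to 54.4 RPKM, beside 51.8% of all protein-coding genes in the PGC list and 31.2% in the somatic list. The 3 of 10 is thus near the share of all genes. Somatic tissue markers had peaks in both lists: 10 of 10 in the PGC list, at 51.3 to 742.3 RPKM, and 9 of 10 in the somatic list, at 61.7 to 237.3 RPKM. Muscle Mef2 and gut GATAe were higher in the somatic list, whereas the other 8 were higher in the PGC list or listed there alone. The somatic markers therefore do not separate the lists, and the part that this plays in the results was not tested.

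Oxidative phosphorylation takes place on the inner mitochondrial membrane. Complex I (NADH dehydrogenase) and complex II (succinate dehydrogenase) feed electrons to ubiquinone, complex III (cytochrome bc1) passes them to cytochrome c, and complex IV (cytochrome c oxidase) passes them to oxygen. Complexes I, III and IV pump protons, and complex V (ATP synthase) makes ATP from the resulting gradient. Most subunits come from nuclear genes that nearly every cell uses, while Drosophila has many duplicated copies of them that are known for expression in the testis.

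The promoters of 2 stem and paralogue pairs, and of 2 further broadly used genes, are given as examples. Each window runs from 250 bases before to 50 after the gene's 5′ start site, read 5′ to 3′ on the strand of the gene, which is the plus strand in all of them, from the RefSeq release 6 genome (dm6). Capitals mark matches on either strand to TATCGATA (the DNA replication-related element), GGTCACAC (a core promoter element known as Motif 1) or GAGAG (the word bound by GAGA factor). UQCR-14, a complex III subunit, lies at chrX:16286038-16286337. COX5B, a complex IV subunit, lies at chr2L:6557550-6557849 and COX5BL, just downstream, at chr2L:6559181-6559480. ATPsynbeta, the catalytic subunit of complex V, lies at chr4:1031234-1031533 and ATPsynbetaL at chr3L:16097584-16097883. ND-PDSW, an accessory subunit of complex I with a pair of Motif 1 copies, lies at chr2L:3465907-3466206.
UQCR-14: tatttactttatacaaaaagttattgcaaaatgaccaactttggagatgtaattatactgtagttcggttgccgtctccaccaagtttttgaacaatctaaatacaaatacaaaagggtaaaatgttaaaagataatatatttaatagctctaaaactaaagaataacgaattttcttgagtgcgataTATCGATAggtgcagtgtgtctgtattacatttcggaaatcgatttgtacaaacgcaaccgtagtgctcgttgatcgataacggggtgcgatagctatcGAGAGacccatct
COX5B: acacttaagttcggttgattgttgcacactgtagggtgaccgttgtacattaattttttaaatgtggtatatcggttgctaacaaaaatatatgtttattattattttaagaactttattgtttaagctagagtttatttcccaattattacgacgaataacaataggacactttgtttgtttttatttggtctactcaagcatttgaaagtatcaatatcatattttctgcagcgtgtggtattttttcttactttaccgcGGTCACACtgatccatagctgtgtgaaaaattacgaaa
COX5BL: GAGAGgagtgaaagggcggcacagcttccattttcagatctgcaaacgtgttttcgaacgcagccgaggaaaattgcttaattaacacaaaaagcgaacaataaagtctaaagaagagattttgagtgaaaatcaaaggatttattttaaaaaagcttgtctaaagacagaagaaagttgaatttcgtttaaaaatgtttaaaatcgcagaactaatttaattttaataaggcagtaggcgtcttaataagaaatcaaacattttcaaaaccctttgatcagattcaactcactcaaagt
ATPsynbeta: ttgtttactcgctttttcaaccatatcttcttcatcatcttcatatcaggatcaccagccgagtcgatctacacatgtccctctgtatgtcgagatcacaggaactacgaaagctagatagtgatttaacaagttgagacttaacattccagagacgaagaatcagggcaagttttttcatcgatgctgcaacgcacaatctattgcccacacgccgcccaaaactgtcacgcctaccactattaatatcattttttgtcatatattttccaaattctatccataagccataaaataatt
ATPsynbetaL: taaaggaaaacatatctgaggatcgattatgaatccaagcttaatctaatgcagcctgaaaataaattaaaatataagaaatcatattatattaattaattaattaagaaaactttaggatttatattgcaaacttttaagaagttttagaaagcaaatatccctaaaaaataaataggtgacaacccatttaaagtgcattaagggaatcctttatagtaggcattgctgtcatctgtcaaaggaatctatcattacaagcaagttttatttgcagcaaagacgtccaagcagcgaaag
ND-PDSW: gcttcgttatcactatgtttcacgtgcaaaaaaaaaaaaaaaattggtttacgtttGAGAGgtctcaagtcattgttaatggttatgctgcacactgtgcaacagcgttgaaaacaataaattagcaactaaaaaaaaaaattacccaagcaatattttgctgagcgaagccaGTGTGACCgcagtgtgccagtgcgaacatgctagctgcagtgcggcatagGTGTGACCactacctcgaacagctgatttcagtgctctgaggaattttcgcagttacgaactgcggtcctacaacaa

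Of the marked words, UQCR-14 holds TATCGATA and GAGAG, COX5B holds GGTCACAC, COX5BL holds GAGAG, and ND-PDSW holds GGTCACAC, as its reverse complement, and GAGAG. ATPsynbeta and ATPsynbetaL hold none of them. A PGC peak overlapped the start site in all 4 of these broadly used genes and in neither of their paralogues shown, COX5BL and ATPsynbetaL. In the PGC list, UQCR-14 had a peak of 85.4 RPKM with its summit 12 bp upstream of the start. COX5B had one of 94 RPKM, ATPsynbeta one of 235.4 RPKM and ND-PDSW one of 111.1 RPKM. COX5BL and ATPsynbetaL had none within 500 bp. UQCR-14L, the paralogue of UQCR-14, had a peak of 76.8 RPKM with its summit 522 bp upstream of its start. Somatic peaks were listed for 4 of these 7 genes: COX5B had 74.8 RPKM, ATPsynbeta 88.6 RPKM, ND-PDSW 57.9 RPKM and UQCR-14L 60.3 RPKM. The PGC summit of ATPsynbeta was 31 bp from the start of CG11076, that of COX5B 74 bp from the start of IFT52 and that of ND-PDSW 14 bp from the start of msl-2, in each case nearer than to their own start. UQCR-14 thus had a peak in the PGC list alone, and its paralogue had one in both lists.

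The first question was how many of the genes have open chromatin near a start site in each cell type. A gene was counted when a peak came within 500 bp of any of its annotated start sites. In the PGC list, 64 of 88 oxidative phosphorylation genes had such a peak (72.7%), beside 51.8% of all protein-coding genes. The share was 57 of 64 for the broadly used genes (89.1%, exact 95% binomial interval 78.8 to 95.5%) and 7 of 24 for the L paralogues (29.2%, 12.6 to 51.1%). A somatic peak was found for 37 of 88 (42.0%), beside 31.2% of all protein-coding genes, with 32 of 64 broadly used genes (50%, 37.2 to 62.8%) and 5 of 24 L paralogues (20.8%, 7.13 to 42.2%). These intervals cover counting error only, and genes are not replicates. The broadly used genes lay above all genes in both lists and the L paralogues below them.

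Other housekeeping groups gave a scale for these shares. Mitochondrial ribosomal protein genes had a PGC peak in 64 of 73 cases (87.7%) and cytoplasmic ribosomal protein genes in 84 of 92 (91.3%), both near the 89.1% of the broadly used oxidative phosphorylation genes. Proteasome genes had one in 34 of 48 cases (70.8%). In the somatic list the shares were 34.2% for mitochondrial ribosomal, 54.3% for cytoplasmic ribosomal and 35.4% for proteasome genes. The differences between these groups were not tested.

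**Figure D1:**
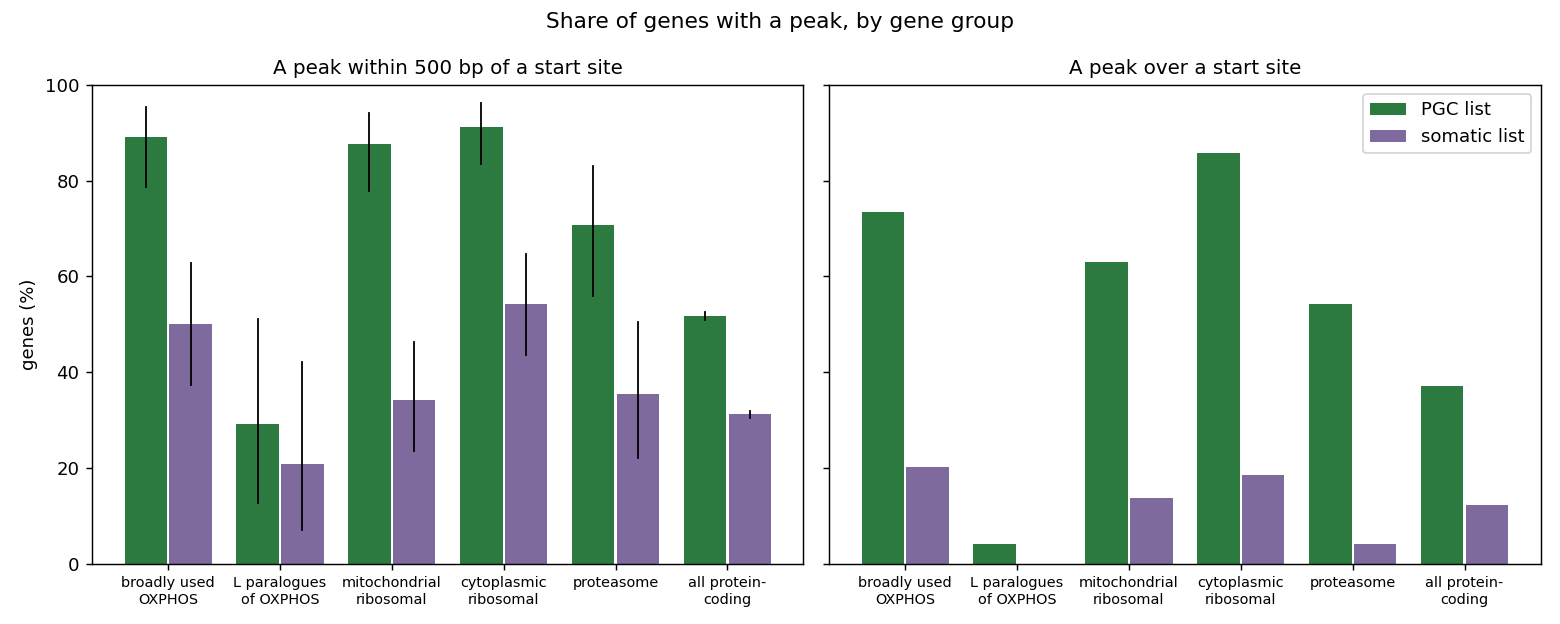
Bars give the percentage of genes in each group with a peak within 500 bp of a start site (left panel) or overlapping a start site (right panel), in the PGC list (green) and the somatic list (purple). Lines in the left panel are exact 95% binomial intervals. In the PGC list the broadly used genes reach 89.1% and the L paralogues 29.2%, on either side of the 51.8% of all protein-coding genes.

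Peaks that covered the start site itself separated the classes further. In the PGC list, 47 of 64 broadly used genes (73.4%) and 1 of 24 L paralogues (4.17%) had a peak over a start site, beside 37.2% of all protein-coding genes. The exception was ND-B14.5AL, with a peak at the lowest listed height of 50 RPKM. A somatic peak lay over a start site in 13 broadly used genes (20.3%) and 0 L paralogues, beside 12.2% of all genes. Peaks over the start sites of the 47 genes ranged from 50.7 to 325.2 RPKM in the PGC list, with a median of 86.3 RPKM, and those of the 13 from 53.5 to 91.2 RPKM in the somatic list, with a median of 74.7 RPKM. Over all genes the medians of such peaks were 107.7 RPKM in the PGC list and 74.2 RPKM in the somatic list.

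The allowed distance mattered most to the L paralogues. Within 100 bp, 54 of 64 broadly used genes and 1 of 24 L paralogues had a PGC peak, beside 42.4% of all genes. Within 2000 bp, 60 of 64 broadly used genes and 15 of 24 L paralogues (62.5%) had one, beside 65.8% of all genes. For somatic peaks, 16 broadly used genes and 0 L paralogues had one within 100 bp, beside 17.6% of all genes, and 50 and 11 had one within 2000 bp, beside 54.8%. The L paralogues thus came near the share of all genes in the PGC list only at the longest distance tried.

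**Figure D2:**
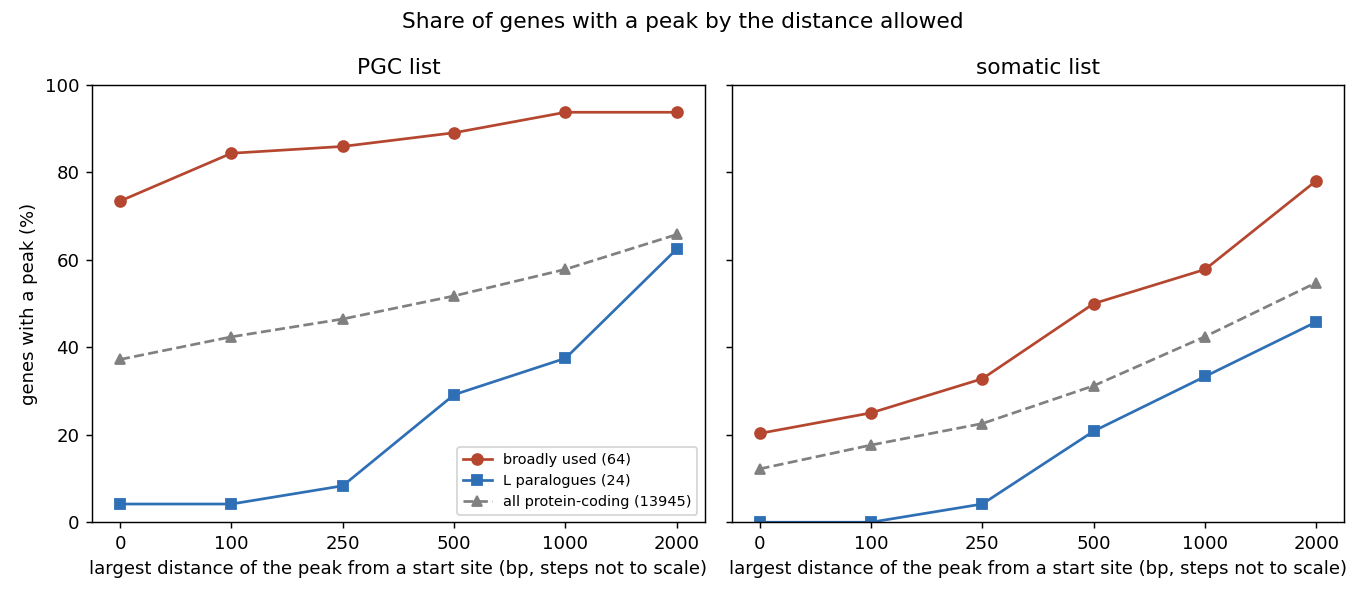
The percentage of genes with a peak (vertical axis) is plotted against the largest distance allowed between peak and start site, in bp at unequal steps, for the 64 broadly used genes, the 24 L paralogues and all 13945 protein-coding genes. PGC peaks of broadly used genes lie mostly at the start site, at 73.4% for a distance of 0 bp, whereas the L paralogues climb only beyond 250 bp, where they stand at 8.33%.

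Among broadly used genes with a peak, the PGC summits clustered at the start site. The highest PGC peak had its summit within 100 bp of a start site in 33 of 57 genes (57.9%), beside 47.6% of all genes with a peak, and the median distance was 55 bp, beside 112 bp. Of the other 24, 19 summits lay upstream, by 127 to 1291 bp, and 5 downstream, by 226 to 498 bp. Somatic summits lay farther off, with 10 of 32 within 100 bp (31.25%), beside 27.4% of all genes with a somatic peak. Their median distance was 249 bp, beside 242 bp, so the somatic summits lay about as far off as those of all genes. Of the others, 9 lay upstream and 13 downstream. In the 7 L paralogues with a PGC peak the summits lay 335 to 872 bp from a start site, with a median of 443 bp. The 5 L paralogues with a somatic peak had summits 257 to 522 bp from a start site.

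**Figure D3:**
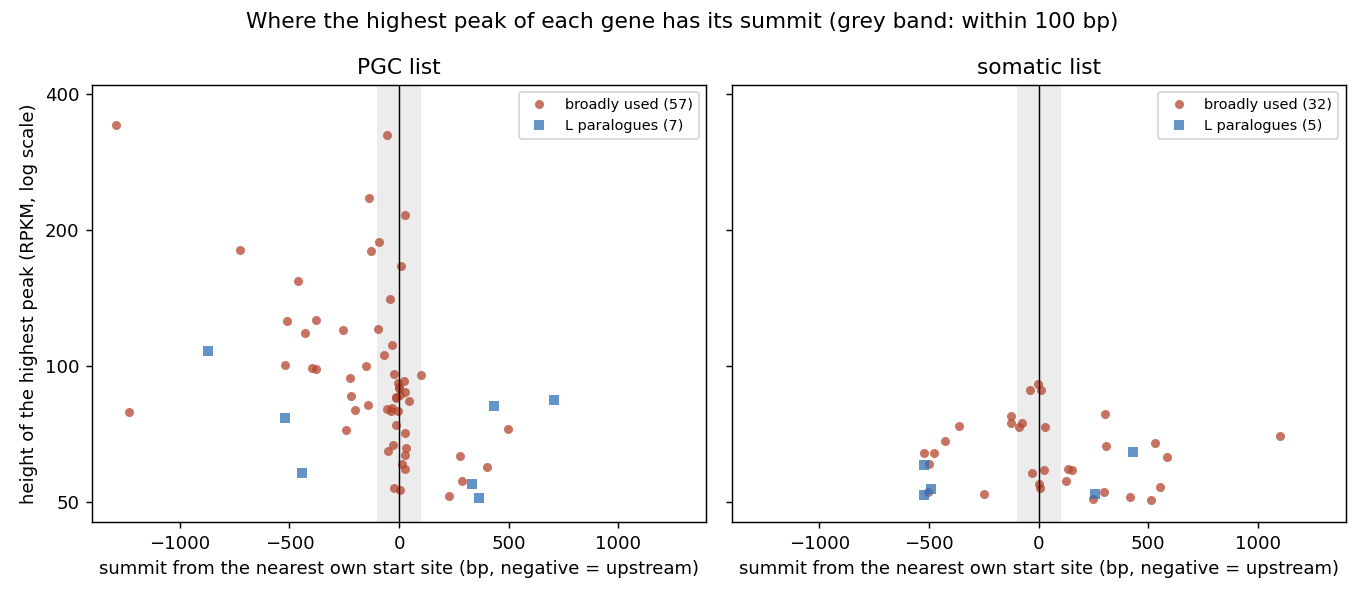
Each point is 1 gene with a peak, placed by the distance of the summit of its highest peak from its nearest own start site (horizontal, in bp, negative upstream) and by the height of that peak (vertical, RPKM, log scale). The grey band, within 100 bp of the start, holds 33 of 57 broadly used genes and 0 of 7 L paralogues in the PGC list, and 10 of 32 and 0 of 5 in the somatic list.

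Many of these genes share their promoter region with a neighbour. Another gene's start site lay within 500 bp in 38 of 64 broadly used genes (59.4%) and in 3 of 24 L paralogues (12.5%), beside 30.9% of all genes. In 21 of the 57 broadly used genes with a PGC peak (36.8%, beside 24.0% of all genes with a peak), the summit was nearer to a start site of another gene than to one of their own. Where no other start site lay within 500 bp, 22 of 26 broadly used genes (84.6%) and 6 of 21 L paralogues (28.6%) still had a PGC peak, beside 40.7% of such genes overall. In the somatic list the counts were 10 of 26 (38.5%) and 4 of 21 (19.0%), beside 25.7%. The gap between the classes in the PGC list was thus of a similar size without neighbours. Broadly used genes without a neighbouring start had lower and narrower PGC peaks, with medians of 79.9 RPKM and 200 bp, than those with one, with medians of 98.6 RPKM and 600 bp.

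The second question was how high and wide the peaks of the broadly used genes are. Their highest PGC peak had a median of 87.6 RPKM, with a range of 51.5 to 342.6 RPKM, beside a median of 94.9 RPKM for all protein-coding genes with a peak. In the somatic list the median was 63.4 RPKM, with a range of 50.5 to 91.2 RPKM, beside 62.0 RPKM. Their share with a peak was above that of all genes in both lists, while their median height was lower than that of all genes in the PGC list and close to it in the somatic list. Median widths equalled those of all genes, at 400 bp in the PGC list and 200 bp in the somatic list. Cytoplasmic ribosomal protein genes were higher in the PGC list, with a median of 118.1 RPKM, as were mitochondrial ribosomal protein genes, with 97.55 RPKM. At a stricter height of 80 RPKM, 37 of 64 broadly used genes (57.8%) kept a PGC peak, beside 32.0% of all genes. Only 3 (4.69%) kept a somatic peak, beside 7.16% of all genes. The excess in the somatic list was thus not seen at this height, and 3 genes are too few to give an order.

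The highest peaks belonged to different complexes. ND-B14, an accessory subunit of complex I, had the highest PGC peak among the members, 342.6 RPKM, but its summit lay 1291 bp upstream and 116 bp from the start of Polr2E, a subunit of RNA polymerases. ATPsynF, a complex V subunit, had 325.2 RPKM in the PGC list and 91.2 RPKM in the somatic list, with summits 55 bp upstream in the PGC list and 5 bp upstream in the somatic list. The somatic peak was the highest of all members. ATPsynbeta followed with 235.4 RPKM in the PGC list and 88.6 RPKM in the somatic list. UQCR-Q, of complex III, had 216.6 RPKM in the PGC list and 73.1 RPKM in the somatic list, with both summits 27 bp downstream of the start. COX6B, of complex IV, had 188.3 RPKM in the PGC list and 73.3 RPKM in the somatic list, and both summits were 5 bp from the start of CG33932 and 91 bp from its own. ATPsynD, of the stator of complex V, had 181 RPKM in the PGC list and 74.7 RPKM in the somatic list, and its PGC summit was 6 bp from the start of cdi. The PGC summit of ATPsynbeta, as given above, was also nearer to another gene's start. The PGC peaks of ATPsynD, ND-B14, COX6B and ATPsynbeta therefore cannot be assigned to these genes alone.

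Of the 6 broadly used genes with the highest somatic peaks, 2 were also among the 6 with the highest PGC peaks, namely ATPsynF and ATPsynbeta. Next came ND-MWFE, a complex I subunit, with 166.7 RPKM in the PGC list and 88.4 RPKM in the somatic list, both 10 bp from the start. ND-B17, also of complex I, had 120.8 RPKM in the PGC list and 78.4 RPKM in the somatic list. COX7C had 179.8 RPKM in the PGC list and 77.4 RPKM in the somatic list, and COX5B 94 RPKM in the PGC list and 74.8 RPKM in the somatic list. The widest PGC peaks were those of ATPsyngamma (2100 bp), the rotor shaft of ATP synthase, ATPsynD (1550 bp) and SdhC (1450 bp), a membrane anchor of succinate dehydrogenase. Their somatic peaks were 750, 300 and 50 bp wide. The PGC summits of ATPsyngamma, ATPsynD and SdhC were nearer to the starts of yata, cdi and Tctp than to their own. In all, 8 broadly used genes had a PGC peak of at least 1000 bp and none had such a somatic peak. The share of all protein-coding genes with peaks this wide was not taken, so these counts have no scale.

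Complex by complex, broadly used genes with a PGC peak were the rule. The counts stand beside a PGC peak in 51.8% of all protein-coding genes and a somatic peak in 31.2%. In complex I, 31 of 34 had a PGC peak, with a median of 79.4 RPKM, and 14 of 34 a somatic peak, with a median of 58.4 RPKM. In complex II, 4 of 5 had a PGC peak and 2 of 5 a somatic one, namely SdhB, the iron-sulfur subunit, and SdhC. All 6 complex III genes had a PGC peak, at 80.6 to 216.6 RPKM, and 4 of 6 a somatic one. In complex IV, 7 of 8 had a PGC peak, with a median of 95.8 RPKM, and 5 of 8 a somatic one, with a median of 73.3 RPKM. In complex V, 9 of 11 had a PGC peak, with a median of 125.6 RPKM, and 7 of 11 a somatic one, with a median of 73.7 RPKM. The ranges of all complexes overlapped in both lists, and 6 of the 9 PGC summits of complex V genes were nearer to another gene's start than to their own. Complex I genes were by far the most numerous, and 21 of the 34 had a PGC peak over a start site. This stands beside 37.2% of all genes, 4 of 5 in complex II, 6 of 6 in III, 7 of 8 in IV and 9 of 11 in V. Such a peak was not always the gene's highest, as in ND-B18 with 74.4 RPKM over the start and 120.3 RPKM at its highest peak.

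**Figure D4:**
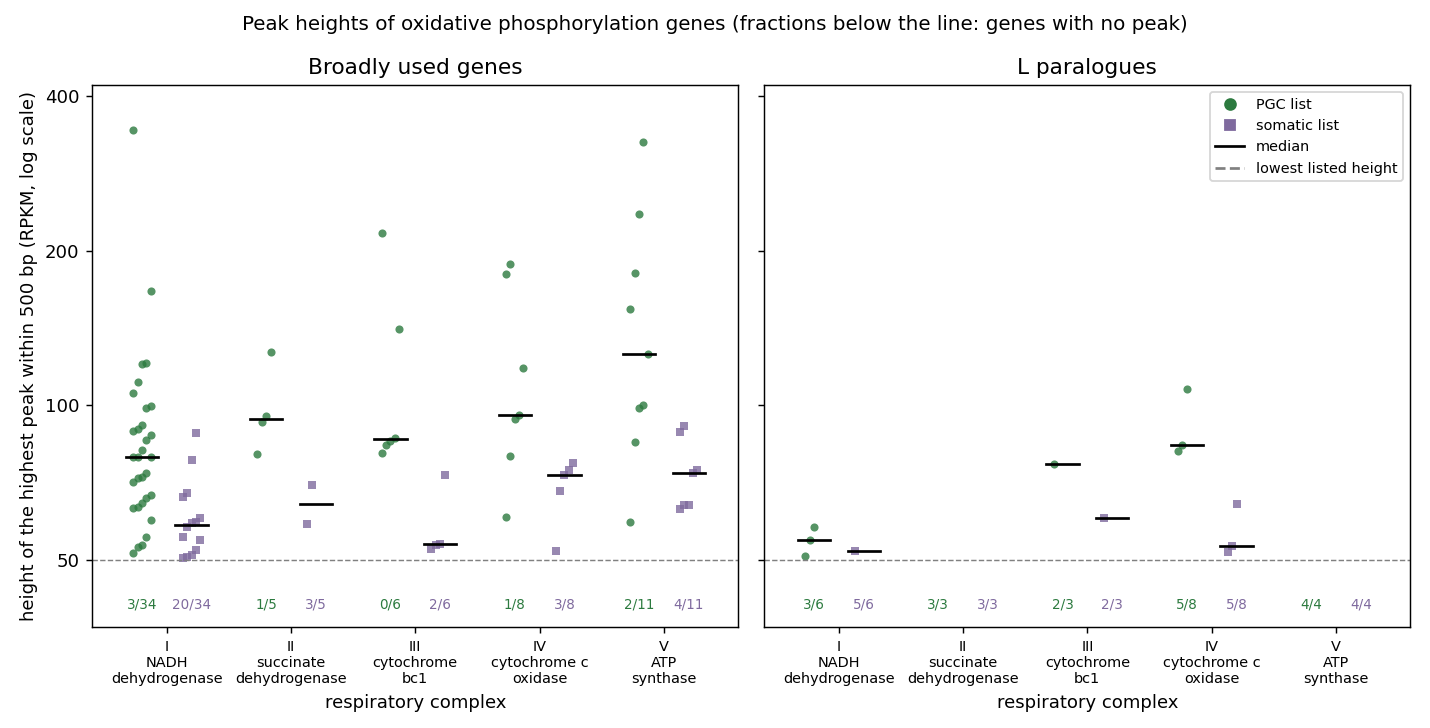
Each point is the height of the highest peak within 500 bp of a gene's start sites (RPKM, log scale) in the PGC list (green circles) and the somatic list (purple squares), by respiratory complex, for broadly used genes (left) and L paralogues (right). Black bars are medians, the dashed line is the lowest listed height of 50 RPKM, and fractions under it count the genes with no peak, such as 3 of 34 (PGC) and 20 of 34 (somatic) broadly used genes in complex I.

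The members with a peak in both lists were compared gene by gene. Of 64 broadly used genes, 32 had a peak in both lists, 25 in the PGC list alone, 0 in the somatic list alone and 7 in neither. For the L paralogues the counts were 5, 2, 0 and 17. Over all protein-coding genes 27.5% had a peak in both lists, 24.3% in the PGC list alone and 3.72% in the somatic list alone. A peak in neither list was the case for 6209 of the 13945 genes. The shares of broadly used genes were 50% in both lists and 39.1% in the PGC list alone. Thus none of the 37 members with a somatic peak lacked a PGC peak, beside 11.9% of all genes with a somatic peak. The PGC peak was the higher in 31 of the 32 broadly used genes with both, beside 91.3% of all such genes. The median ratio of PGC to somatic height was 1.62, beside 1.93 over all genes. The PGC excess was thus no larger in these genes than over the lists as a whole. The highest peaks of both lists overlapped in 22 of the 32 broadly used genes (68.75%), beside 78.6% of all such genes. In the others the ratio compares different peaks.

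The ratios had 1 exception and few extremes. ND-B12 alone was lower in the PGC list, with 63.2 RPKM there and 67.6 RPKM in the somatic list. The next lowest ratios were those of ND-B22 and ND-13B. ND-B22 had 59.8 RPKM in the PGC list and 58.9 RPKM in the somatic list, from different peaks. ND-13B had 65.9 RPKM in the PGC list and 59.2 RPKM in the somatic list. All 3 are complex I subunits. ND-B14 had the largest ratio, 5.16, with 342.6 RPKM in the PGC list and 66.4 RPKM in the somatic list, but from different peaks. ATPsynF followed with a ratio of 3.57 and UQCR-Q with 2.96, both from peaks at their start sites in either list. Their PGC summits were also 71 bp from the start of CG3548 and 144 bp from that of CG46525.

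The 7 broadly used genes without a peak in either list were ATPsynC, ATPsyndelta, COX7A, ND-23, ND-24, ND-75 and Sdhaf3. ATPsynC encodes the ring of the ATP synthase rotor and ATPsyndelta a part of its central stalk. ND-75, ND-24 and ND-23 are core subunits of complex I that carry iron-sulfur clusters, COX7A is a complex IV subunit, and Sdhaf3 is an assembly factor of complex II. For ND-23 and ATPsyndelta the nearest PGC peak lay just beyond the limit, at 517 bp with 64 RPKM and at 520 bp with 226.2 RPKM. For Sdhaf3 it lay at 852 bp with 67.8 RPKM. It lay 2408 bp away for COX7A, 3071 bp for ATPsynC, 3230 bp for ND-24 and 4101 bp for ND-75. No PGC peak was thus listed within 2000 bp of ATPsynC, COX7A, ND-24 or ND-75.

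The broadly used genes were also counted by chromosome, with no test of the differences. On the X chromosome, 9 of 12 broadly used genes (75%) had a PGC peak, beside 52.4% of all X-linked genes, and 3 of 12 (25%) a somatic peak, beside 22.6%. On the autosomes, 48 of 52 (92.3%) had a PGC peak, beside 51.6% of autosomal genes, and 29 of 52 (55.8%) a somatic peak, beside 32.8%. The 3 X-linked genes with a somatic peak were COX6B (73.3 RPKM), ND-20 (51.1 RPKM) and ND-B16.6 (55.5 RPKM). The 3 X-linked genes without a PGC peak were ATPsyndelta, ND-24 and ND-75. The low X-linked share was not particular to the X, since 10 of 14 broadly used genes on 3R (71.4%) had a PGC peak, while all of those on the other autosomal arms did. X-linked median PGC heights were close to the autosomal ones, at 89.3 RPKM on the X and 86.95 RPKM on the autosomes. Of the L paralogues, SdhBL alone was on the X, and it had no peak.

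The third question was how each L paralogue compares with its stem, the gene whose name it extends. There were 24 pairs over 21 stems, since COX7A, ND-51 and levy each have a pair of L paralogues. The stems of COX6AL and COX6AL2 (levy), COX6CL (cype) and ATPsynepsilonL (sun) carry symbols outside the naming rule. In the PGC list, both genes had a peak in 5 pairs, the stem alone in 16, the L paralogue alone in 2 and neither in 1. In the somatic list, both had a peak in 1 pair, the stem alone in 10, the L paralogue alone in 4 and neither in 9. The stem was thus the one with a peak in most pairs of the PGC list, and in the somatic list pairs without any peak were nearly as common as pairs with the stem alone.

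**Figure D5:**
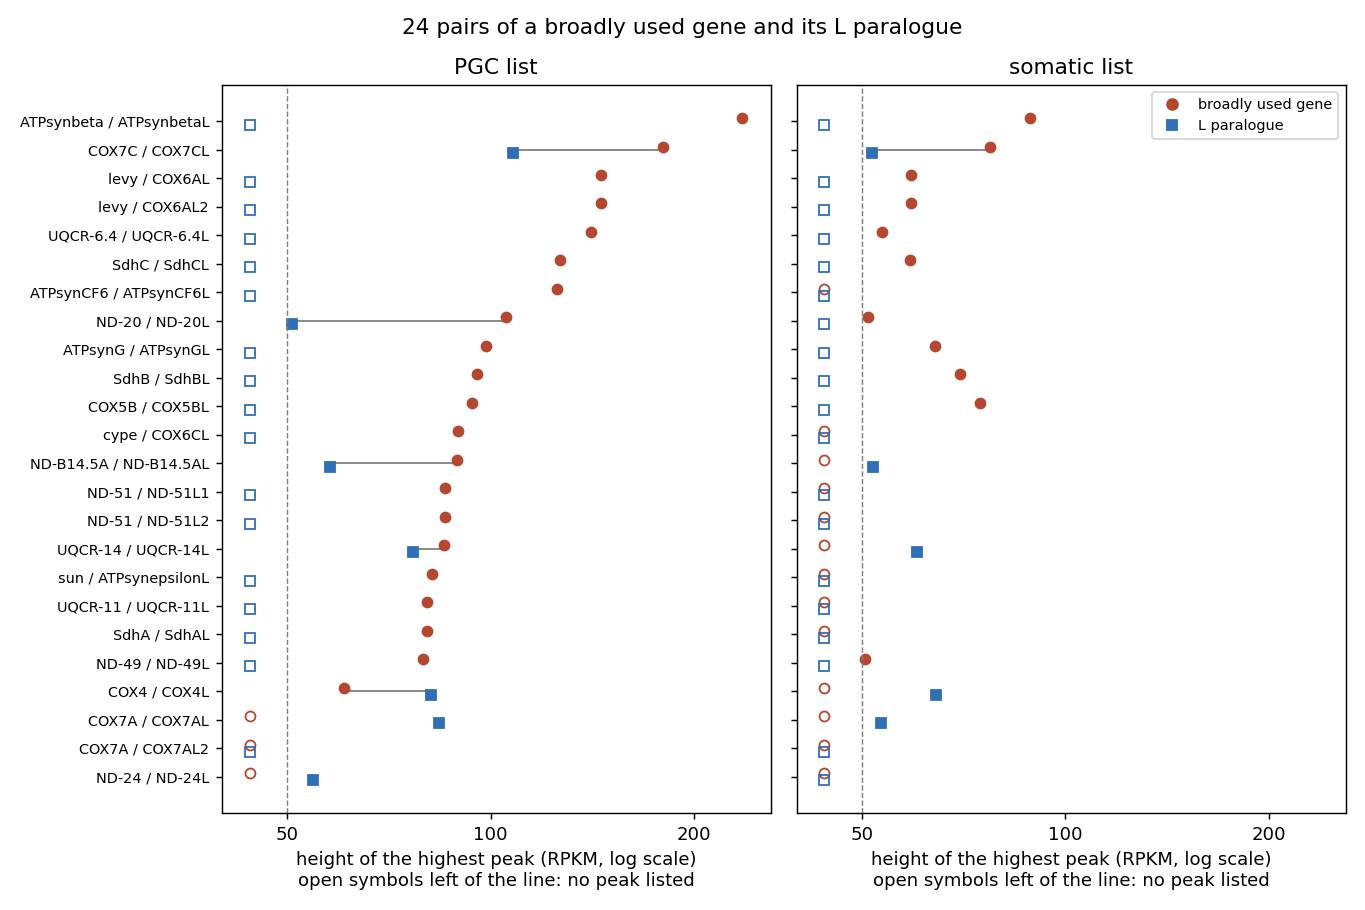
Each row is a broadly used gene (red circle) and its L paralogue (blue square), ordered by the PGC height of the stem, with the height of the highest peak within 500 bp of a start site (RPKM, log scale) in the PGC list (left) and the somatic list (right). Open symbols left of the dashed line at 50 RPKM have no listed peak. In the PGC list the stem alone has a peak in 16 of 24 pairs.

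The 16 pairs with a PGC peak at the stem alone took in every complex. The catalytic ATPsynbeta had 235.4 RPKM and ATPsynbetaL no peak. In complex V the same held for ATPsynCF6 (125.6 RPKM), a stator subunit, ATPsynG (98.6 RPKM) and sun (81.9 RPKM), the epsilon subunit. In complex IV it held for levy (146 RPKM), the subunit 6A and stem of both COX6AL and COX6AL2, COX5B (94 RPKM) and cype (89.6 RPKM), the subunit 6C. Complex III gave UQCR-6.4 (141 RPKM) and UQCR-11 (80.6 RPKM). In complex II it held for all of the paralogues, with SdhA, the flavoprotein, at 80.4 RPKM, SdhB at 95.5 RPKM and SdhC at 126.7 RPKM. Complex I gave ND-49 (79.5 RPKM) and ND-51 (85.7 RPKM), the NADH-binding flavoprotein and stem of both ND-51L1 and ND-51L2. ATPsynbeta, levy, UQCR-6.4, SdhC, ATPsynG, SdhB, COX5B and ND-49 also had a somatic peak, and none of their L paralogues did. The PGC summits of ATPsynbeta, ATPsynCF6, ATPsynG, COX5B, UQCR-6.4, SdhC and ND-51 were nearer to a neighbouring gene's start than to their own. For levy, cype and sun, which are not members by name, this was not tested.

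Where both genes had a PGC peak, the stem was the higher in 4 of 5 pairs. COX7C had 179.8 RPKM and COX7CL 107.8 RPKM, but these genes are neighbours and the summit counted for COX7CL was 5 bp from the start of COX7C. ND-20, a core iron-sulfur subunit, had 105.6 RPKM and ND-20L 50.9 RPKM. ND-B14.5A had 89.3 RPKM and ND-B14.5AL 57.9 RPKM. UQCR-14 had 85.4 RPKM and UQCR-14L 76.8 RPKM. COX4L was the one paralogue above its stem, with 81.5 RPKM in the PGC list and 64.4 RPKM in the somatic list, both 432 bp downstream of its start, while COX4 had 60.6 RPKM in the PGC list and no somatic peak.

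In the pairs where the paralogue alone had a PGC peak, that peak was not at its start site. COX7AL had 83.9 RPKM, 707 bp downstream of its start and 24 bp from the start of DppIII, a peptidase gene, while COX7A had no peak. ND-24L had 54.6 RPKM in a peak 50 bp wide, with a summit 335 bp downstream of its start, while ND-24 had none. COX7A and COX7AL2 both had no peak. In the somatic list the paralogue alone had a peak in the COX4L, COX7AL (53.3 RPKM), ND-B14.5AL (52 RPKM) and UQCR-14L (60.3 RPKM) pairs, and in the COX7C pair both did (COX7CL 51.8 RPKM). The 7 L paralogues with any peak were thus COX4L, COX7AL, COX7CL, ND-20L, ND-24L, ND-B14.5AL and UQCR-14L, and for 2 of them the PGC summit was nearest to another gene's start.

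The other 17 L paralogues had no peak in either list. For 16 of them the nearest PGC peak within 20 kb lay 746 to 12893 bp from a start site, with a median of 2398 bp. It was nearest for SdhBL (746 bp, 59.4 RPKM) and ND-49L (935 bp, 54.6 RPKM), and farthest for COX6CL (12893 bp, 96.6 RPKM). SdhCL had none within 20 kb. COX5BL was 1381 bp from its nearest PGC peak, which was that of its neighbour and stem COX5B.

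Gene structure also differed between L paralogues and broadly used genes. A single annotated start site was found in 21 of 24 L paralogues (87.5%) and in 32 of 64 broadly used genes (50%), beside 73.5% of all genes. An L paralogue lay inside another gene in 10 of 24 cases (41.7%), a broadly used gene in 2 of 64 (3.13%), beside 13.4% of all genes. No intron interrupted the coding sequence in 11 L paralogues (45.8%) and 8 broadly used genes (12.5%), beside 20.8% of all genes, and in 10 pairs the stem had a coding intron and the paralogue none. The stem was on the X in 5 pairs, and in all 5 the paralogue was on an autosome. Protein identity within pairs, over aligned residues, ran from 30.1% (COX7A and COX7AL) to 85.6% (UQCR-14 and UQCR-14L), with a median of 51.4%. The UQCR-11 (78.8%), ND-20 (76.8%) and ND-51L1 (75.5%) pairs were next in identity. The part that these differences in structure play in the peak counts was not tested.

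Promoter words differed between the classes in the window that the sequences above show, 250 bases before to 50 after the 5′ start site. Motif 1, GGTCACAC, was found on either strand in 15 of 64 broadly used genes (23.4%) and 1 of 24 L paralogues, beside 7.70% of all promoters. The palindromic E-box CAGCTG was found in 19 (29.7%) and 2, beside 17.7%, and TATCGATA in 9 (14.1%) and 0, beside 9.36%. TATAAA was found in 40 (62.5%) and 9 (37.5%), beside 45.8%. GAGAG went the other way, with 10 broadly used genes (15.6%) and 10 L paralogues (41.7%), beside 29.7%. CAGGTA, the core of the word bound by the pioneer factor Zelda, was found in 4 and 2, beside 6.24%, and TTACGTAA in none of the 88, beside 0.452%. None of the 7 words contains another of them. The windows were rich in A and T, with a median GC content of 34.3% in broadly used genes and 33.7% in L paralogues, beside 38% in all genes. A match is a word in this window and no measure of binding.

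GGTCACAC and TATCGATA were set beside the peaks. Of the 15 broadly used genes with GGTCACAC, among them COX5B and ND-PDSW, 14 had a PGC peak, with a median of 97.3 RPKM, and 9 a somatic peak, with a median of 69.9 RPKM. Of the 49 without it, 43 had a PGC peak (85.4 RPKM) and 23 a somatic one (60.5 RPKM). Over all genes, 87.9% of those with the word and 48.7% of those without had a PGC peak, and 49.6% and 29.7% a somatic one. Of the 9 broadly used genes with TATCGATA, such as UQCR-14, 7 had a PGC peak, with a median of 64.7 RPKM, and 0 a somatic peak. Of the 55 without it, 50 had a PGC peak, with a median of 92.1 RPKM, and 32 a somatic peak. Over all genes, 80.8% of those with TATCGATA and 48.8% of those without had a PGC peak, with medians of 98.5 and 94 RPKM. Over all genes the somatic share was 41.9% with TATCGATA and 30.1% without, so the 0 of 9 was not the pattern of all genes with that word.

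Genes of the same pathway whose symbols fall outside the naming rule had shares near those of the broadly used genes. Of 11 further subunits and carriers, 11 had a PGC peak, with a median of 113 RPKM. This stands beside 51.8% of all protein-coding genes, with a median of 94.9 RPKM. A somatic peak was listed for 6 of the 11, with a median of 60.2 RPKM, beside 31.2% of all genes, with a median of 62 RPKM. Among them, blw, the alpha subunit of ATP synthase, had 197.6 RPKM in the PGC list and 78.5 RPKM in the somatic list. RFeSP, the Rieske protein of complex III, had 156.8 RPKM in the PGC list and 59.2 RPKM in the somatic list. The other 4 with a peak in both were levy (146 RPKM in the PGC list, 59 RPKM in the somatic list), ox of complex III (133.7 RPKM in the PGC list, 55.7 RPKM in the somatic list), Cyt-c1 (113 RPKM in the PGC list, 61.2 RPKM in the somatic list) and Cyt-c-d (83 RPKM in the PGC list, 70.5 RPKM in the somatic list). The ADP/ATP carrier genes had a peak in the PGC list alone, sesB at 189.2 RPKM and Ant2 at 80.1 RPKM. Cytochrome c has a pair of genes, Cyt-c-p, used in most tissues, and Cyt-c-d, known for its role in sperm. Cyt-c-p had 83.9 RPKM in the PGC list and no somatic peak, so that of this pair the sperm gene alone had a peak in both lists. The PGC summits of Cyt-c1, levy and cype lay more than 250 bp from their starts. Whether the summits of these 11 genes were nearer to another gene's start was not tested.

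Regulators of mitochondrial genes had a PGC peak in 8 of 9 cases, beside 51.8% of all protein-coding genes. A somatic peak was listed for 7 of these regulators, beside 31.2% of all genes. The highest were mtSSB, which binds single-stranded mitochondrial DNA (223.3 RPKM in the PGC list, 98.5 RPKM in the somatic list), mtTFB1, an rRNA methyltransferase (222.3 RPKM in the PGC list, 65.8 RPKM in the somatic list), and srl, the fly homologue of a mammalian coactivator of mitochondrial genes (197.4 RPKM in the PGC list, 83.8 RPKM in the somatic list). Ets97D, ewg, TFAM, which packages mitochondrial DNA, and PolrMT, the mitochondrial RNA polymerase, had 112.2, 105.4, 89.3 and 88.2 RPKM in the PGC list, and 50, 61.2, 59.8 and 57.1 RPKM in the somatic list. PolG1, the mitochondrial DNA polymerase, had 52.9 RPKM in the PGC list alone and mtTFB2 had no peak. Of 5 assembly factors, all had a PGC peak, from Surf1 at 54.7 RPKM to Bcs1, which assembles complex III, at 128.3 RPKM. The PGC summit counted for Bcs1 lay more than 1000 bp upstream of its start, in a peak 1800 bp wide. Scox, Surf1 and CIA30 also had a somatic peak, at 58.6, 50 and 57 RPKM, and sicily (76.8 RPKM) and Bcs1 did not. The PGC summits of mtSSB, mtTFB1 and PolG1 lay more than 250 bp upstream of their starts. Whether the summits of these regulators and assembly factors were nearer to another gene's start was not tested, so their peaks may not be theirs alone.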

How the data were processed

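ATAC-seq was measured in 2 PGC and 2 somatic samples. Following the study's methods and the submitters' processing notes, the authors trimmed reads with cutadapt 4.2, aligned them with bowtie2 2.5.1 to release 6 (dm6), removed duplicates with SAMtools 1.17, made RPKM coverage from uniquely mapping reads with deepTools 3.5.4 outside blacklisted regions, averaged both replicates and called peaks with MACS2 (minimum length 60 bp, maximum gap 150 bp, cutoff set by hand). Both lists nevertheless hold peaks 50 bp wide, under the stated minimum length of 60 bp. No shift of read ends was described. The deposited score is 10 times the RPKM height at the summit, and it was divided by 10. The deposited summit offset gave the summit position. RPKM scaling lowers all peaks of a library with more reads outside peaks. The study gives an approximate sequencing yield per sample, the peak lists hold no read counts, and the 4 small RNA samples were not used here.

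Start sites, introns and coding sequences came from the Ensembl 115 annotation of release 6, and promoter sequence from the RefSeq genome of the same release. For each gene the highest peak within 500 bp of any start site was taken. Members, lists and motifs were chosen with earlier results of these data known, and no test was run. Named genes were every member without a PGC peak, every L paralogue with its stem, the 6 highest broadly used genes of each list, the 3 widest PGC peaks, the 3 most extreme height ratios in each direction and the pathway lists, of which 2 symbols in the subunit list and 1 in the germline list were not matched. Other genes given with values were chosen after these were seen, including ND-PDSW. The L class was set from symbols, and includes COX6CL and ATPsynepsilonL, whose stems are not members by name. Protein identity came from global alignment of translated coding sequences with Biopython 1.88. Other steps used Python 3.11.15, numpy 2.4.6, scipy 1.17.1 and matplotlib 3.10.9, and were tested on simulated data. Alternatives were other distances, a stricter height, no narrow peaks, summits in place of peaks, 1 start site a gene, genes without neighbouring starts, other readings of the names and height ranks.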

Additional observations from a re-analysis of the deposited data

How the results depend on the processing

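No paired analysis was possible because peaks were called on the average of both replicates, and for the same reason no replicate could be left out. With peaks within 100 bp, the share with a somatic peak was 18.2% of members and 25% of broadly used genes (median height 73.2 RPKM), beside 17.6% of all genes, and the L paralogues stood at 4.17% in the PGC list and 0% in the somatic list. Within 250 bp, the somatic shares were 25% of members and 32.8% of broadly used genes, beside 22.6% of all genes, and the L paralogues stood at 8.33% in the PGC list and 4.17% in the somatic list. With peaks of at least 80 RPKM, 45.5% of members and 57.8% of broadly used genes (median 99.9 RPKM) had a PGC peak, beside 32.0% of all genes, and 3.41% and 4.69% (median 88.6 RPKM, 400 bp wide) a somatic peak, beside 7.16% of all genes, while the L paralogues stood at 12.5% in the PGC list and 0% in the somatic list. Without another gene's start within 500 bp, the members stood at 59.6% in the PGC list and 29.8% in the somatic list, and the broadly used genes had PGC medians of 79.9 RPKM and 200 bp. The excess of members over all genes in the somatic list was thus small within 100 and 250 bp. It was not seen at 80 RPKM, where only 3 members kept a somatic peak. Each of these settings counted fewer peaks or genes, and the part that this plays in the shifts was not tested. In every one of these settings the PGC share of broadly used genes was above that of L paralogues. A distance of 1000 bp, leaving out peaks 50 bp wide, summits in place of peaks, 1 start site a gene and other readings of the names moved no share beyond its interval. Without peaks 50 bp wide the median somatic width of the broadly used genes was 300 bp, and by summits their median PGC width was 300 bp. Chosen after seeing the data, taking only L paralogues whose stem is a member gave 31.8% in the PGC list and 22.7% in the somatic list, and adding the 11 subunits of other names to the broadly used genes gave 90.7% and 50.7%. The lists end at 50 RPKM, a cutoff set by hand, so an absent peak is not an absent signal.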

Other observations

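Among genes whose symbol differs from the naming rule only in case, Cox11, a copper chaperone of cytochrome c oxidase, had a PGC peak of 59.3 RPKM, and Cox17, another copper chaperone, had one of 67 RPKM. Cox10, which makes heme A precursor for the same complex, had no peak. None of the 3 had a somatic peak, beside 31.2% of all protein-coding genes.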
